A study of Mus musculus with 4 samples.

Results

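The oligonucleotides described here are the array probes whose transcripts were at least 8-fold richer in mouse footpad RNA than in a common reference RNA. A probe entered when the reference channel was well above background on all 4 arrays, and when the footpad channel was well above background and the scanner's log10 ratio of reference over footpad was at or below -0.903 on both arrays of at least 1 genotype. This gave 1437 of the 42006 probes on the array, or 5.12% of the 28090 probes whose reference signal was well above background on all 4 arrays. Of these, 1194 passed the limit on both arrays of both genotypes, 122 on both arrays of the wild type (WT) only and 121 on both arrays of Tabby only. The probes were chosen by their footpad over reference ratios and sorted into classes by the same ratios, so the ratios are given below as a description.

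The tissue was footpad of adult male C57BL/6 mice, with 2 WT and 2 Tabby samples. The labels give an age of 9 weeks for WT 1, WT 2 and Tabby 2 and 10 weeks for Tabby 1, although the stage label of WT 1 is that of a pup. The Tabby samples carry the label of a gene knockout, with no allele or agent named. The dyes were never swapped (Cy3 for footpad, Cy5 for reference), so the level of a ratio includes any dye bias of its probe, whichever the genotype. The reference was the same kind of mixture throughout, RNA pooled from cultured mouse cell lines of embryonic, immune, epithelial, muscle and testis origin and mixed with RNA of 129ES embryonic stem cells. The 4 arrays shared 1 slide and 1 scan, and the first 2 positions held WT and the last 2 Tabby, so genotype and position cannot be told apart. Whether each sample was a different animal is not in the labels, and the spread behind the p-values may be technical.

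Tabby mice lack the function of ectodysplasin A (Eda), a ligand of the tumour necrosis factor family that acts through its receptor Edar and the transcription factor NF-kB in embryonic skin. It is required for hair follicle types, teeth and the sweat glands, which in mice are found in the footpads and do not form in Tabby. A footpad also holds thick cornified epidermis, dermis, fat, muscle, nerve and vessels. A pool of cultured cell lines holds few of the RNAs that differentiated tissue makes in quantity, so a ratio to it ranks transcripts by how far the tissue exceeds such cells. In whole tissue, fewer cells of a type and less RNA per cell cannot be told apart.

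The gene name, description and position columns of the array name no gene, and repeat the probe ID for 42006 of 42006 probes. The probes are therefore identified by ID and by their 60 designed bases, and neither Eda nor the markers of footpad cell types could be read out as a check of the labels. The sequences that carry the main values are printed first, 5′ to 3′ in lower case. The first are the pair with the highest mean footpad over reference ratio, followed by the pair that fell with the smallest p in the class rich in both genotypes and the 1 that rose. Capitals mark the hexamer AATAAA, the canonical polyadenylation signal, where a probe has it.
Z00011102-1: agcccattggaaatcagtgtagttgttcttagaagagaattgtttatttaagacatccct
Z00048522-1: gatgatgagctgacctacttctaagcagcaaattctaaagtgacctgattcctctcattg
Z00023222-1: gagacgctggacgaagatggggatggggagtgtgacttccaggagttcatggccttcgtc
Z00023878-1: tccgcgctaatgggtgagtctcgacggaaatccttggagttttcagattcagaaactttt
Z00048810-1: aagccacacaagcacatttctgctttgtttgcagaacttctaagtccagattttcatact

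The next 4 had the greatest Tabby minus WT difference among probes rich in WT only, a pair of falls, and in Tabby only, a pair of rises. Z00074275-1 has AATAAA at base 52.
Z00025366-1: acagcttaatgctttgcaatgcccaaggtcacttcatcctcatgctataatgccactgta
Z00074275-1: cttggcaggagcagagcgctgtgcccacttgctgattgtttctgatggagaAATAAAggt
Z00074028-1: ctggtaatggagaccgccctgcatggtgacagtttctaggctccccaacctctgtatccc
Z00048536-1: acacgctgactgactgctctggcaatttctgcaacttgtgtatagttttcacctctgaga

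The last 5 were chosen after their values were seen, because their reference signal moved together with their footpad signal. They had the greatest falls or rises of the reference signal in their class.
Z00020870-1: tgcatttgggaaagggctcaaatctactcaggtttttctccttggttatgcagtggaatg
Z00076517-1: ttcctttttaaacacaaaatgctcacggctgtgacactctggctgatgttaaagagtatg
Z00048874-1: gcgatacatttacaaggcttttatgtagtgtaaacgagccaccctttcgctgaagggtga
Z00025054-1: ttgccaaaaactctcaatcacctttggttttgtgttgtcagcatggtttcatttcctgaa
Z00076814-1: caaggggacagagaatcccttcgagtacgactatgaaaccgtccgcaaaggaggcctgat

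Values for 4 arrays are given in the order WT 1, WT 2, Tabby 1 and Tabby 2. The excess of footpad over reference was greatest for Z00011102-1, at 843, 967, 1042 and 858-fold. Its footpad signal was 51690, 50270, 47780 and 41490 against a reference signal of 61.3, 52.0, 45.8 and 48.4. The footpad signal was high on all 4 arrays, while the ratio rests on a reference signal at the low end of the members. Z00048522-1 had log2 ratios of 9.47 and 9.65 on the WT arrays and 9.82 and 9.57 on the Tabby arrays, with reference signals of 263, 300, 310 and 262. Neither probe was called different between the genotypes. The log2 ratios normalized for limma were, for Z00011102-1, 8.15 and 8.29 in WT and slightly lower in Tabby, at 8.09 and 8.00. The limma difference was -0.18 for Z00011102-1 (SE 0.11, adjusted p = 0.63) and 0.14 for Z00048522-1 (SE 0.17, adjusted p = 0.798).

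Most members lay far below these. On the mean of the 4 arrays 720 members were at least 16-fold, 295 at least 32-fold, 112 at least 64-fold, 44 at least 128-fold, 18 at least 256-fold and 5 at least 512-fold richer in footpad. On every single array, 616 passed 16-fold, 243 passed 32-fold, 100 passed 64-fold and 5 passed 512-fold. None of the probes rich in 1 genotype only had a mean of 16-fold. The median member had a footpad signal of 8570, 7882, 9766 and 7263 and a reference signal of 471, 397, 496 and 323. The median footpad signal of all probes with a detected reference was 1390, 1210, 1418 and 967. The rule asks for a footpad signal at least 8-fold above a detected reference, so members are bright in footpad by their choice. No member was saturated in either channel.

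Footpad richness carried over between genotypes for most probes. Of the 1316 probes past the limit on both WT arrays, 1194 (90.7%) were also past it on both Tabby arrays. Of the 1315 past it on both Tabby arrays, the same 1194 (90.8%) were past it on both WT arrays. The counts lost in each direction were 122 and 121, but these moved with the arrays used. They became 177 and 64 when WT 1 was left out and 162 and 109 when WT 2 was. They were 94 and 216 when Tabby 1 was left out and 120 and 268 when Tabby 2 was. Leaving out an array asks the limit of only 1 array in that genotype, so the direction of each shift is set by the rule. The sizes of the changes also differed. Of the WT-rich probes, 37 had a mean Tabby ratio under 4-fold and 19 one under 2-fold. Of the Tabby-rich probes, 4 had a mean WT ratio under 4-fold and 1 under 2-fold.

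Among the 122 probes rich in WT only, 76 were below the limit on both Tabby arrays, 28 on Tabby 1 alone and 18 on Tabby 2 alone. The class medians of the log2 ratio were 3.32 and 3.33 on the WT arrays and 2.59 and 2.71 on the Tabby arrays. The limma difference had a median of -0.90 and ran from -4.95 to 0.23, and 54 fell by at least 2-fold, 33 by at least 4-fold and 17 by at least 8-fold. At 44 of the 122 the difference was under 0.5 log2 in size, so these crossed the limit with little change. At 6 the reference was the richer RNA on both Tabby arrays. Falls of at least 2-fold were made by 1.34% of the 28373 tested probes, and 51 of the 122 had an adjusted p under 0.05 in limma, against 1.36% of tested probes called lower; the class was cut on this difference, so nothing is read from these shares. Z00030843-1 was not well above background on either Tabby array and has only a bound there, and Z00022475-1 was not on Tabby 1.

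Z00025366-1 had the greatest fall. Its footpad signal was 14550 and 9109 on the WT arrays and 102 and 248 on the Tabby arrays, while its reference signal was 739, 613, 654 and 427. Both Tabby footpad values were far below both WT values, and the reference moved little. The log2 ratio went from 4.30 and 3.89 to -2.68 and -0.78, a limma difference of -4.95 (SE 0.37, n = 2 per genotype). Z00074275-1, a brighter probe, had footpad signals of 217300 and 201700 in WT and 5156 and 8569 in Tabby, against reference signals of 10190, 9411, 10310 and 7263. Its log2 ratio of 4.42 on both WT arrays became -1.0 and 0.24 in Tabby, a limma difference of -4.76 (SE 0.38). In both probes Tabby 1 was lower than Tabby 2.

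The 121 probes rich in Tabby only were mostly near the limit in WT. Both WT arrays were below it for 50, WT 1 alone for 58 and WT 2 alone for 13. Class medians were 2.84 and 2.99 on the WT arrays and 3.21 on both Tabby arrays. The limma difference had a median of 0.28 and a maximum of 1.55. It was under 0.5 log2 in size for 86 of the 121 (94.1% of all tested probes were), and 9 rose by at least 2-fold and none by 4-fold. Rises of at least 2-fold were made by 0.264% of tested probes, and 7 of the 121 had an adjusted p under 0.05 against 0.0705% of tested probes called higher; these shares again follow the cut.

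The greatest rise in this class rested on unlike WT arrays. Z00074028-1 had footpad signals of 463 on WT 1 and 2171 on WT 2, and 3659 and 2980 on the Tabby arrays. Its log2 ratios were 0.38 and 2.65 in WT and 3.20 and 3.28 in Tabby, a limma difference of 1.55 with an SE of 0.61. Z00048536-1 was more even, with log2 ratios of 2.02 and 2.66 in WT and 3.87 and 3.81 in Tabby (difference 1.5, SE 0.23). Its footpad signals were 907, 1392, 5494 and 2821. Z00072804-1 was not well above background in footpad on 1 WT array, so it has only a bound there and no ratio is given.

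Values close to the limit show how the classes end. Just inside it were Z00020544-1, with log2 ratios of 2.879, 2.727, 3.001 and 3.436, and Z00074070-1, with 1.427, 3.128, 3.002 and 3.153, both rich in Tabby only. Just outside was Z00021721-1, with 2.998, 3.055, 2.967 and 2.850. Z00018024-1 was also just outside, with 3.363 and 2.999 in WT and -0.03 and -0.34 in Tabby. It fell by 3.14 in limma, as 1 of 43 tested probes that fell at least 8-fold, and is absent from the class rich in WT only by a margin far below the gap between the WT arrays.

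Within the 1194 probes rich in both genotypes, the Tabby minus WT comparison asks which transcripts changed while they stayed at least 8-fold above the reference. A large fall takes a probe out of this class, so the class holds small changes by its making. The median limma difference was 0.05 log2 against 0.01 over all tested probes, and it turned to -0.013 with median centring and to -0.003 without Tabby 1. In size, 1084 (90.8%) differed by less than 0.5 log2, against 94.1% of all tested probes. Both Tabby arrays were below both WT arrays at 165 probes (13.8%) and above them at 308 (25.8%), where all tested probes gave 21.5% and 21.6%. In limma, with Benjamini-Hochberg adjustment over the 28373 tested probes, 14 of the 1194 (1.17%) fell and 1 (0.0838%) rose at an adjusted p under 0.05. All tested probes gave 1.36% and 0.0705%, so both shares are near the background. Exact permutation of 2 against 2 arrays cannot give a two-sided p below 0.333.

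These counts moved with the arrays used and with how the ratio was made. The numbers of falls and rises called changed whenever 1 array was left out, in this class and over all tested probes. The median limma difference of the class was 0.004 without WT 1 and 0.094 without WT 2. It was -0.003 without Tabby 1 and 0.086 without Tabby 2. In each such fit 1 genotype has a single array, which is assumed to vary like the other genotype. The spread then comes from the other pair alone, and the median SD over all tested probes was 0.075 log2 for WT and 0.121 for Tabby. With the scanner's own log ratio, to which no offset is added, 1 probe fell and none rose, where all tested probes gave 266 and 11. At an unadjusted limma p under 0.05, 74 of the 1194 were lower and 91 higher. Of the 28373 tested probes, 2042 were lower and 1147 higher at that p, so nothing particular to this class is read from the 2 counts.

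The fall with the smallest p was Z00023222-1. Its footpad signal was 56130 on WT 1 and 50910 on WT 2, and 5636 and 4998 on the Tabby arrays. Its log2 ratio went from 6.49 and 6.60 to 3.84 and 4.40, with no overlap, and the limma difference was -2.76 (SE 0.15, adjusted p = 0.00203). This probe, the 1 fall that the scanner's log ratio also called, was still 14.3-fold above the reference on Tabby 1. Z00023878-1 went from 6.12 and 6.39 to 4.82 and 5.17, a limma difference of -1.93 (SE 0.11, adjusted p = 0.0022). With the scanner's log ratio its difference was -1.26, which did not pass. The 14 falls ran from -0.81 to -2.76, with a median of -1.44.

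The single rise was small and dim. Z00048810-1 had log2 ratios of 3.97 and 3.93 in WT and 4.14 and 4.55 in Tabby, and a limma difference of 0.89 (SE 0.11, adjusted p = 0.0241). Its reference signal was 29.0, 26.1, 60.4 and 36.4, of the size of the offset of 50 that was added to each channel. Under the scanner's log ratio the difference was 0.40 and did not pass, and it was also not called with median centring, in the authors' value table or without either WT array.

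The labels give the same reference mixture for every array. Yet among the few members with a large footpad change, the reference signal often differed between the genotypes in the same direction. Over all members the median reference change was -0.07 log2. The footpad signal was at least 4-fold lower in Tabby at 51 members, and at 25 of these (49.0%) the reference signal was at least 2-fold lower as well. By class this held for 7 of 8 probes rich in both genotypes and 18 of 43 rich in WT only. The first class had to stay at least 8-fold above the reference in Tabby, which favours probes whose reference fell too. Its share is thus partly set by the rule, and the other probes were under no such condition. Among the other probes with a detected reference, the footpad fell 4-fold at 158 and the reference fell 2-fold at 4 of them (2.53%). Over all tested probes the footpad fell 4-fold at 1.1% and the reference fell 2-fold at 0.786%.

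Rises gave the same picture. The footpad signal was at least 2-fold higher in Tabby at 46 members, and at 15 of them the reference rose by at least 2-fold, 14 of 32 in the class rich in both genotypes and 1 of 14 rich in Tabby only. Elsewhere this held for 2 of 112 probes. Over all tested probes the footpad rose 2-fold at 0.863% and the reference at 0.236%. The median change over all tested probes was -0.10 log2 in the footpad channel and -0.13 in the reference channel.

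At the 51 members whose footpad fell at least 4-fold, the median reference change was -0.94 log2. For the 8 of them rich in both genotypes it was -1.71. Z00020870-1 had the largest reference fall of that class, at -3.48 log2, and is not typical. Its footpad signal was 83040, 54250, 4572 and 1711. Its reference signal was 1445, 813, 157 and 60.1. Both channels were lower on both Tabby arrays than on either WT array, by 24.0-fold in footpad and 11.2-fold in reference on the means of the logs. Because the channels moved together, the scanner's log2 ratio fell by only 1.1, which did not pass in limma (adjusted p = 0.0675). The reference signal of 60.1 on Tabby 2 was of the size of the offset of 50 added to each channel. The limma difference was -2.38 (SE 0.26, adjusted p = 0.0169); it was not called without WT 1 or without WT 2.

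Z00076517-1 had footpad signals of 8100 and 7211 in WT and 485 and 609 in Tabby. Its reference signals were 368 and 295 in WT and 45.5 and 35.8 in Tabby. The footpad fell by 3.81 and the reference by 3.03 on the log2 scale. The limma difference was -2.31 (SE 0.17, adjusted p = 0.00448). With the scanner's log ratio the difference was -0.79 and did not pass in limma (adjusted p = 0.388). Both Tabby reference signals were below the offset of 50 added to each channel, which draws ratios of dim probes toward 0. Z00076814-1, rich in WT only, had footpad signals of 40760, 24880, 556 and 806 and reference signals of 3150, 1783, 157 and 135. Its footpad channel was 47.6-fold and its reference channel 16.3-fold lower in Tabby, while its scanner log2 ratio fell by 1.55. For these probes the scanner's ratio to the reference shows a small part of the drop of the footpad signal.

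Z00048874-1 moved the other way. Its footpad signal was 9264 and 9068 in WT and 70400 and 34040 in Tabby, and its reference signal was 313, 281, 2086 and 1016. Each channel was at least 3-fold higher on either Tabby array than on either WT array. The ratio hardly changed, with log2 values of 4.89, 5.01, 5.08 and 5.07, and the limma difference of 0.58 (SE 0.12) did not pass in limma (adjusted p = 0.138), though it did without Tabby 2 (adjusted p = 0.0316) and with the footpad channel alone (difference 2.56, adjusted p = 0.012). Z00025054-1 had footpad signals of 4351, 3997, 44500 and 10510 and reference signals of 110, 68.7, 830 and 177. Here Tabby 1 stood well above Tabby 2 in both channels, and the limma difference of 1.12 (SE 0.20) had an adjusted p of 0.0889 in limma, against 0.0321 without Tabby 1 and 0.00352 without Tabby 2.

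The channels also moved together between arrays of the same genotype. Across the 1194 probes rich in both, the Pearson correlation of the reference change with the footpad change was 0.855 for Tabby minus WT, 0.741 for WT 1 minus WT 2 and 0.788 for Tabby 1 minus Tabby 2. Across the 24748 other probes with a detected reference and a tested value the figures were 0.386, 0.344 and 0.469. Across the 614 probes at least 8-fold richer in the reference on every array they were 0.315, 0.195 and 0.432. These are descriptions over probes that share the same 4 arrays and are not independent. The first and last sets were also cut on the ratio of the channels on every array. That cut leaves out probes whose channels moved far apart, so the sets and the other probes are not compared on like terms. The cause was not tested.

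The need for a detected reference on all 4 arrays also bears on which probes were counted. Where the reference had to be well above background only in the genotype that was rich, 246 probes were rich in WT only in place of 122, and 125 in Tabby only in place of 121. Of the 1440 probes then past the limit on both WT arrays, 124 had lost the reference flag in Tabby, 25 of them on both arrays, 98 on Tabby 2 alone and 1 on Tabby 1 alone. Of those 124, 91 were still past the 8-fold limit on both Tabby arrays. Their footpad signal fell at least 4-fold at 27, and the median of their reference signals was 40.2 in WT and 28.8 in Tabby. Tabby 2 was the array with the fewest detected reference probes, 67.4% of all probes against 72.7% to 75.1% on the others.

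The 14 falls of the class rich in both genotypes can be read against both channels. The footpad signal was at least 2-fold lower in Tabby for all 14 (3.76% of tested probes were), and the reference was at least 2-fold lower for 7 of them. The 7 whose scanner ratio itself fell by 2-fold or more include Z00023222-1, Z00020870-1, Z00023878-1 and Z00043941-1. Z00043941-1 is one where the reference held still. Its log2 ratio was 5.49 and 5.24 in WT and 3.24 and 3.79 in Tabby, its limma difference was -1.85 (SE 0.17, adjusted p = 0.0089), its footpad channel changed by -1.83 and its reference channel by 0.02. Z00035087-1 lies at the other end, with a limma difference of -1.05 (SE 0.12, adjusted p = 0.0177) but log2 ratios of 5.26, 5.47, 4.88 and 5.16, a footpad change of -2.40 and a reference change of -2.06; it was not called without either WT array.

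Members do not all stand for separate transcripts. At least 20 bases on the same strand were shared with another member by 103 of the 1437, in 53 pairs that form 51 groups, so counting each group once leaves 1385. Both probes of all 53 pairs fell in the same class. The median gap in mean log2 ratio within a pair was 0.14, and 51 pairs were within 1 log2. The widest gap was 1.46, between Z00013910-1, with log2 ratios of 3.65, 3.73, 3.63 and 3.64, and Z00074456-1, with 5.16, 5.13, 5.07 and 5.13. The widest gap in the Tabby minus WT difference was 0.39, between Z00023830-1 and Z00055704-1.

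Another 8 pairs joined a member to a probe outside the set. The first pair below is shown because the partner's footpad signal follows that of the member and yet the partner was left out. The second is shown because the partner's reference was detected on no array. Capitals mark the shared bases.
Z00074496-1: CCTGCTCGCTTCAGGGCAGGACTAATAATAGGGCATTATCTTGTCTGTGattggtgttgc
Z00038987-1: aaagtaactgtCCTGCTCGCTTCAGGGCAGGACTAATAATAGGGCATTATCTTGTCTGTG
Z00075806-1: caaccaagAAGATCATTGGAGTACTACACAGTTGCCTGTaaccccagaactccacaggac
Z00031180-1: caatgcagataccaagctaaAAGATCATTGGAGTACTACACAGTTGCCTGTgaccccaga

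Z00074496-1 and Z00038987-1 share 49 bases. The first had log2 ratios of 4.80, 4.76, 3.49 and 4.05 and a limma difference of -1.67 (SE 0.13, adjusted p = 0.00563). The second had 4.89 and 5.22 on the WT arrays and 3.83 on Tabby 1, and its Tabby 2 ratio is not given. Footpad signals were 5795, 5338, 1142 and 1181 for the first and 1990, 2509, 501 and 526 for the second. The footpad signals of both were lower on the Tabby arrays than on the WT arrays, with Tabby 1 the lowest. The second was not a member because its reference signal, 67.2, 67.4, 35.3 and 21.7, was not well above background on Tabby 2. The reference channel of Z00074496-1 was 1.25 lower in Tabby on the log2 scale; for Z00038987-1 the Tabby 2 reference has only a bound, so no size is given.

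Z00075806-1 and Z00031180-1 share 31 bases in their middle. The first gave log2 ratios of 6.46, 6.51, 6.60 and 6.48 with footpad signals of 8747, 9338, 10640 and 6199. The second had footpad signals of 67.6, 72.9, 69.5 and 76.0, and its reference was not well above background on any array, so its ratios are not given. Different probes respond differently, so the signals are given side by side and not compared. In another pair, Z00075475-1 (rich in WT only) and Z00060202-1, which share 35 bases, the log2 ratios were 3.17, 3.18, 0.91 and 1.34 for the first and 2.94, 2.85, 0.75 and 1.19 for the second, which fell just short of the limit.

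Probes to the opposite strand were rarer. Shared complementary stretches of at least 20 bases linked 10 members to another probe in 9 pairs, and 1 of these pairs held 2 members. In the pair shown here a member rich in WT only faces a probe that is richer in the reference, and capitals mark the 25 bases that are complementary.
Z00001163-1: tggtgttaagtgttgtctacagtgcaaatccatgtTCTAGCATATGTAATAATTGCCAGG
Z00074446-1: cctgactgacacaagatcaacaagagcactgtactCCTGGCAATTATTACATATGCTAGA

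Z00001163-1 had footpad signals of 450500 and 313200 in WT and 30380 and 44100 in Tabby. Its log2 ratios were 4.22, 3.77, 0.25 and 1.30, a limma difference of -3.03 (SE 0.34), and its reference signal was 24220, 22990, 25620 and 17950. Z00074446-1 had log2 ratios of -0.41, -0.34, -0.99 and -0.86, and its footpad signals of 1337, 1784, 5371 and 3451 were higher in Tabby. Its reference signals of 1781, 2259, 10680 and 6276 were higher in Tabby by more, 2.03 on the log2 scale against 1.48 in the footpad channel. Its limma difference was therefore -0.52 (SE 0.11), of the same sign as that of Z00001163-1, whose footpad channel changed by -3.36.

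The median GC content was 45% for members and for all probes with a detected reference. AATAAA, searched as these letters on the probe strand, was present in 141 members (9.81%), in 7.64% of all probes with a detected reference and in 6.93% of all probes of the same length. On the opposite strand it was present in 2.51% of members, 3.09% of probes with a detected reference and 3.36% of all probes. The variant ATTAAA was present on the probe strand in 3.06% of members and 3.31% of probes with a detected reference. These shares were not tested, and a match is not a measured site of polyadenylation.

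Few probes could be placed in the genome. Against RefSeq windows of 250 bases before to 50 bases after the annotated gene starts (GRCm38.p6, 32851 windows), 8 members had at least 30 identical bases on the same strand, and 328 probes of the array did. In 2 of the 8, all bases inside the window matched and at least 30 of them lay past a start site. Z00041441-1 matched 60 of 60 bases at chr3:110143430-110143489, minus strand, at the start of Ntng1, which encodes netrin G1, a membrane-anchored relative of the netrin guidance proteins. Its log2 ratios were 3.88, 3.89, 3.03 and 3.90, with Tabby 1 apart from the other 3, and the limma difference was -0.55 (SE 0.19, adjusted p = 0.372). Z00066495-1 matched 45 of 45 bases inside the window at chr5:124249711-124249755, minus strand, at the start of Pitpnm2, which encodes a phosphatidylinositol transfer protein. Its log2 ratios were 3.93, 4.22, 4.22 and 4.03, and the limma difference was 0.02 (SE 0.17, adjusted p = 0.977). Z00042029-1 matched 30 of 31 bases at chr3:92851237-92851267, minus strand, at the start of Lce1l, a late cornified envelope gene with close copies, so the match to this copy is uncertain; its log2 ratios were 4.42, 4.33, 4.44 and 4.41.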

How the data were processed

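The 4 scanner files give intensities in both channels, deposited by the authors as Agilent Feature Extraction 9.5.1.1 wrote them, with a log10 ratio of processed Cy5 over processed Cy3, per the file headers. The authors' value table is on a log10 scale, as deposited, and served as an alternative. In the text ratios are log2 footpad over reference. Control spots were left out and spots of 1 probe averaged.

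The rule and the levels used the scanner's log ratio. For Tabby minus WT, mean signals and median backgrounds were corrected with normexp (offset 50, which draws ratios of dim probes toward 0), normalized by loess within arrays and fitted with limma 3.58.1 in R 4.3.3 (two-sided moderated test, Benjamini-Hochberg over 28373 probes with Cy3 well above background on both arrays of a genotype). All 1437 members were tested. Channel changes are differences of mean log2 processed signals. The number of arrays limits the precision.

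Members, lists and rules were chosen with earlier results of these data known. Probes are named by rule: 2 per class and direction by level, difference or p, and 2 on each side of the limit; the others were chosen after their values were seen. No table of proteins or probe genes was used here, so the planned match of probes to genes gave no names and 0 of 14 gene lists were counted. The limma step was checked on simulated data.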

Additional observations from a re-analysis of the deposited data

How the results depend on the processing

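At 4-fold and 16-fold limits there were 2614 and 745 members (1437 at 8-fold), with 2139 and 616 rich in both genotypes (1194 at 8-fold), 293 and 53 in WT only (122) and 182 and 76 in Tabby only (121). WT only held 246 probes with the reference flag asked of the rich genotype alone and 79 in the authors' value table. Tabby only held 79 in that table and 76 with the normexp and loess ratio. Leaving out 1 array asks the limit of a single array in its genotype. This gave 1480 to 1682 members, 1209 to 1294 rich in both, 94 to 177 in WT only and 64 to 268 in Tabby only. Of all members, 65 (4.52%) were called lower and 8 (0.557%) higher by limma, against 1.36% and 0.0705% of tested probes. Of the 65, 51 were rich in WT only, and of the 8, 7 were rich in Tabby only. These classes were cut on the difference itself, so nothing is read from the shares. The scanner's log ratio called 33 and 1 members, and 266 and 11 of all tested probes. The values the authors tabulated gave 26 and 1 members, and 201 and 12 of all probes tested there. Median centring, the footpad channel alone and no filter on dim probes called 3, 5 and 5 members higher. Over all tested probes these gave 8, 32 and 17. Among probes rich in both (14 lower, 1 higher), the scanner's log ratio called 1 lower and 0 higher, as did the values the authors tabulated, and the footpad channel alone and a robust intensity trend called 2 higher each. Without 1 array in turn, 36 to 115 members were lower and 0 to 102 higher, and among those rich in both 3 to 41 and 0 to 76. With the replicate number as a block, 81 members were lower and 21 higher, and among those rich in both 19 and 12. Over all tested probes the block gave 582 and 83. The samples share only a number: over the 2 pairs, deviations of same-numbered arrays correlated at 0.22. The median difference was 0.20 for all members and 0.22 for those rich in both with the footpad channel alone (0.04 and 0.05 as reported). With median centring it turned to -0.017 and -0.013, and leaving out 1 array gave -0.0070 to 0.089 for all members and -0.003 to 0.094 for those rich in both. For WT only (-0.90) it was -0.79 with the scanner's log ratio, -1.03 with the footpad channel alone and -0.79 to -0.88 without 1 array. For Tabby only (0.28) it was 0.42 with the footpad channel alone and 0.41 in the authors' table. Among the named probes recomputed, none with an adjusted p under 0.05 in limma changed direction under an alternative run. Of the pair with the highest ratios, Z00011102-1 (-0.18) was at 0.067 with the scanner's log ratio and in the authors' values, and Z00048522-1 (0.14) at -0.012 without WT 1 and -0.0075 without Tabby 1. The cause of these shifts was not tested. The slide as a block could not be fitted with 1 slide, and the match of probes to proteins, with or without a mismatch, was not run. Ratios rest on reference signals that are often dim, and 2 arrays per genotype limit the precision of every difference.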
